A study of Homo sapiens with 9 samples.

Results

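Transcript levels of 4 CDC-like kinases (CLK1, CLK2, CLK3 and CLK4) and 6 serine- and arginine-rich splicing factors (SRSF2, SRSF3, SRSF5, SRSF6, SRSF7 and SRSF11) were examined in A375R melanoma cells. These 10 genes were taken by symbol from the 62710 genes measured, and all 10 were among the 15230 genes with a mean normalized count of at least 10 that entered the tests. A375R is a derivative of the human A375 melanoma line with resistance to the BRAF inhibitor PLX4032. Cells received DMSO, 10 µM VHL-r or 10 µM R4VPL3-1, each for 2 h, with 3 libraries per treatment and 9 in all. R4VPL3-1 is a PROTAC-like molecule that joins a ligand of the ubiquitin ligase RNF4 to a recruiter of the ubiquitin ligase VHL, and VHL-r is that recruiter alone, so R4VPL3-1 against VHL-r asks what the remainder of the molecule adds at a matched dose and time. The control libraries carry a wild-type label with no dose and are called DMSO here, after the study design. All 9 libraries come from this single resistant line, so the groups share its genetic background. The study's methods list PLX4032 in the culture medium of this line, DMSO controls included, although the sample labels do not mention it.

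CLKs are dual-specificity kinases that phosphorylate the arginine- and serine-rich (RS) domains of SR proteins in the nucleus, which releases SR proteins from nuclear speckles to the sites of splicing. SR proteins bind exonic enhancers in the pre-mRNA and recruit the spliceosome, and most also act in mRNA export or translation. Both families control their own output through splicing. CLK1 and CLK4 keep a large store of intron-retaining transcripts in the nucleus that can be spliced when kinase activity falls or cells are heated, and SR genes carry poison exons whose inclusion sends the transcript to nonsense-mediated decay. In GENCODE 44, 8 of the 10 genes had a transcript annotated as intron-retaining and 9 had one annotated as a decay target, against 49.98% and 38.8% of the tested genes. CLK1 had 8 intron-retaining transcripts among 14, CLK4 had 7 among 13, and SRSF7 had 6 decay targets among 12. The deposited values count all reads of a gene together, so they do not separate spliced from intron-retaining transcripts.

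The promoters of 4 of the genes are shown from RefSeq (GRCh38.p14, from 250 bases before to 50 after the start, each on the strand of its gene). The start is that of the RefSeq entry. Of the windows shown, those of SRSF5 and CLK4 lie inside the gene spans given below, away from the outermost annotated start. CLK1 is shown because it had the largest rise among the 10, CLK4 because it is the close relative of CLK1 that was not called, SRSF7 because it was lower with both compounds, and SRSF5 because it holds the other motif match. Capitals mark a match to an antioxidant response element.
CLK1 (chr2:200864609-200864908, minus strand): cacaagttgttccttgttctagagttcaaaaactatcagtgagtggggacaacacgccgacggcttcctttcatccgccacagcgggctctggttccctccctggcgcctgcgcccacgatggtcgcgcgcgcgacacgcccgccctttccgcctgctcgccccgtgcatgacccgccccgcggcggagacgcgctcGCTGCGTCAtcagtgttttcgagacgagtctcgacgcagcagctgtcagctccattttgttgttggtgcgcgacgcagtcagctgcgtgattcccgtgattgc
CLK4 (chr5:178627001-178627300, minus strand): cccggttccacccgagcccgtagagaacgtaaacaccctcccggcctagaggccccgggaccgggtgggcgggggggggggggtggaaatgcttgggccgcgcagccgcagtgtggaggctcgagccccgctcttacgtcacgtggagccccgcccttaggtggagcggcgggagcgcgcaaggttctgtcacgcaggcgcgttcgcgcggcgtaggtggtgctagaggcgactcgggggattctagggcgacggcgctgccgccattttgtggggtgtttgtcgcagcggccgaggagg
SRSF7 (chr2:38751445-38751744, minus strand): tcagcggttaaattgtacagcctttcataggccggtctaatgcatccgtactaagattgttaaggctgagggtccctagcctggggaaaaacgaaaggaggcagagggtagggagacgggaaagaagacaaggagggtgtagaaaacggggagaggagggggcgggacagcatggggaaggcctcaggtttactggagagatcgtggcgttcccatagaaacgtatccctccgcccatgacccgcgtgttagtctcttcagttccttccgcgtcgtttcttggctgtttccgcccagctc
SRSF5 (chr14:69766892-69767191, plus strand): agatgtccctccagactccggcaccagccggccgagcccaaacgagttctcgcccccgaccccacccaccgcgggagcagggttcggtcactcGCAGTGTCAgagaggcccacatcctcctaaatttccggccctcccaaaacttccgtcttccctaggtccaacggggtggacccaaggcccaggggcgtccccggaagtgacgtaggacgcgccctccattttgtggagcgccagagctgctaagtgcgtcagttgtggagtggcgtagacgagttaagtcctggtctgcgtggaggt

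The promoter table held 9 of the 10 genes, all but SRSF2. Each window was searched on both strands for 5 motifs of stress-responsive transcription factors. The letters TGACNNNGC (antioxidant response element) matched in CLK1, at -53 to -45 relative to the start, and in SRSF5, at -157 to -149, and 13.6% of all 27305 promoters in the table held them. The letters GAANNTTC or TTCNNGAA (heat-shock element, 13.7% of promoters), TGANTCA (AP-1 site, 7.76%), TGACGTCA (cAMP response element, 1.98%) and TGATGNAA (ATF4 element, 3.67%) matched in none of the 9 windows. No window held more than 1 match, so no motifs overlapped there. CLK4 had 70.7% G or C and 36 CpG dinucleotides in the window, CLK1 62.7% and 35, SRSF5 63.3% and 23, and SRSF7 55.0% and 17, against a median of 58.3% G or C over all promoters. A match describes the letters of a window and shows no binding.

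Values are normalized counts, the reads of a gene divided by the size factor of its library, and the libraries held 26435568 to 32085626 reads. Differences were tested with limma on log2(value + 1) over all 15230 genes, and a gene was called where the p adjusted by Benjamini-Hochberg was 0.05 or less. Log2 differences on this scale understate those of genes with low values. The study describes the 3 libraries of a treatment as independent biological repeats. An exact permutation test of 3 against 3 libraries cannot go below 0.1 for a single gene, so the fit over all genes carries the tests. Of 9 melanocyte-lineage markers, 7 were at 10 or more in each library, MLANA was at 0 and TYR at most at 2.14. The summed melanocyte markers ran from 47410 to 50340 in DMSO, 37140 to 43280 in VHL-r and 36260 to 40110 in R4VPL3-1. In the same order, SOX10 was at means of 17550, 10200 and 8405, MITF at 1722, 1047 and 1011, and MCAM at 13360, 12260 and 11790. DCT and S100B also had lower means with both compounds. The markers did not all fall, with CSPG4 at 14410, 14450 and 15430 and PMEL at 29.9, 32.5 and 29.0. Of the markers of other cells, EPCAM stayed at or below 9.13 and the leukocyte gene PTPRC at or below 11.8. The 3 epithelial markers, most of them KRT14 reads, summed to 350.2 to 391 in DMSO, 300.2 to 320 in VHL-r and 250.2 to 298.5 in R4VPL3-1, and the fibroblast markers to 942 to 1287, 821 to 1798 and 989 to 1289. Whether any of these shifts has a part in the results for the splicing genes was not tested, and in bulk RNA fewer cells of a state and less RNA per cell cannot be told apart.

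CLK1 rose with both compounds and rose further with R4VPL3-1. The gene lies on chromosome 2 (GRCh38, 200853009 to 200864691, minus strand). It measured 907, 941 and 957 normalized counts in DMSO, 1323, 1396 and 1402 in VHL-r, and 3126, 2535 and 2147 in R4VPL3-1. The 3 treatments did not overlap in any pairing, and the spread was widest in R4VPL3-1 (SD 493, n = 3), where replicate 1 was the highest. Within R4VPL3-1, CLK2, CLK3, CLK4, SRSF5 and SRSF11 were, like CLK1, highest in replicate 1 and lowest in replicate 3. SRSF2, SRSF3, SRSF6 and SRSF7 did not have that order, and its cause was not tested. In VHL-r the mean of 1374 was 1.47 times that of DMSO (log2 difference 0.55, SE 0.087, limma adjusted p = 8.00e-05). R4VPL3-1, with a mean of 2603, was 2.78 times DMSO (log2 difference 1.46, limma adjusted p = 6.86e-11). Tested directly, R4VPL3-1 was 1.89 times VHL-r (log2 difference 0.90, 95% interval 0.72 to 1.09, limma adjusted p = 8.37e-07). By fold, CLK1 ranked 43 among the 174 genes that R4VPL3-1 raised over VHL-r, 182 among 1995 against DMSO, and 643 among 1568 in VHL-r against DMSO. Over the fits that left out 1 library, the log2 difference between R4VPL3-1 and VHL-r ran from 0.76 without R4VPL3-1 replicate 1 to 1.04 without R4VPL3-1 replicate 3, and the gene was called in each.

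The other kinases moved far less. CLK3 (chromosome 15, 74598500 to 74645414, plus strand) measured 1433, 1332 and 1338 in DMSO, 1445, 1521 and 1540.4 in VHL-r, and 1811, 1609.8 and 1499.9 in R4VPL3-1. Each treated library was above the highest DMSO library, while the R4VPL3-1 and VHL-r ranges overlapped. CLK3 was 1.20 times higher in R4VPL3-1 than in DMSO (log2 difference 0.26, 95% interval 0.13 to 0.39, limma adjusted p = 0.00442). The log2 difference of 0.14 between VHL-r and DMSO was not called, although the groups did not overlap (limma adjusted p = 0.153), and neither was that of 0.12 between R4VPL3-1 and VHL-r (95% interval -0.0096 to 0.26, limma adjusted p = 0.569).

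CLK2 (chromosome 1, 155262868 to 155278491, minus strand) measured 1490.1, 1542 and 1615 in DMSO, 1535, 1579 and 1527 in VHL-r, and 1876, 1694 and 1467 in R4VPL3-1. The R4VPL3-1 libraries lay on both sides of the DMSO range. None of its differences was called: the log2 difference was 0.11 for R4VPL3-1 against VHL-r (95% interval -0.032 to 0.25, limma adjusted p = 0.683), 0.11 against DMSO (adjusted p = 0.274), and -0.0013 for VHL-r against DMSO (-0.14 to 0.14). Without R4VPL3-1 replicate 3, the lowest of its group, CLK2 was called against DMSO (log2 difference 0.20, limma adjusted p = 0.0164, with up to 0.855 over the 20 alternatives). A pseudogene of CLK2, CLK2P1, shared 0.593% of the 100-base windows of its exons.

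CLK4, the relative of CLK1 on chromosome 5 (178602664 to 178630615, minus strand), was the least abundant kinase. It measured 399, 421 and 460.4 in DMSO, 427, 400.2 and 320 in VHL-r, and 441, 431 and 365 in R4VPL3-1. The ranges of the 3 treatments overlapped in every pairing. The log2 difference was 0.11 for R4VPL3-1 against VHL-r (95% interval -0.10 to 0.33, limma adjusted p = 0.852), -0.052 against DMSO (-0.27 to 0.17), and -0.17 for VHL-r against DMSO (-0.38 to 0.052). The upper bound of 0.33 against VHL-r lies below the lower bound of 0.72 for CLK1 in the same comparison.

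**Figure D1:**
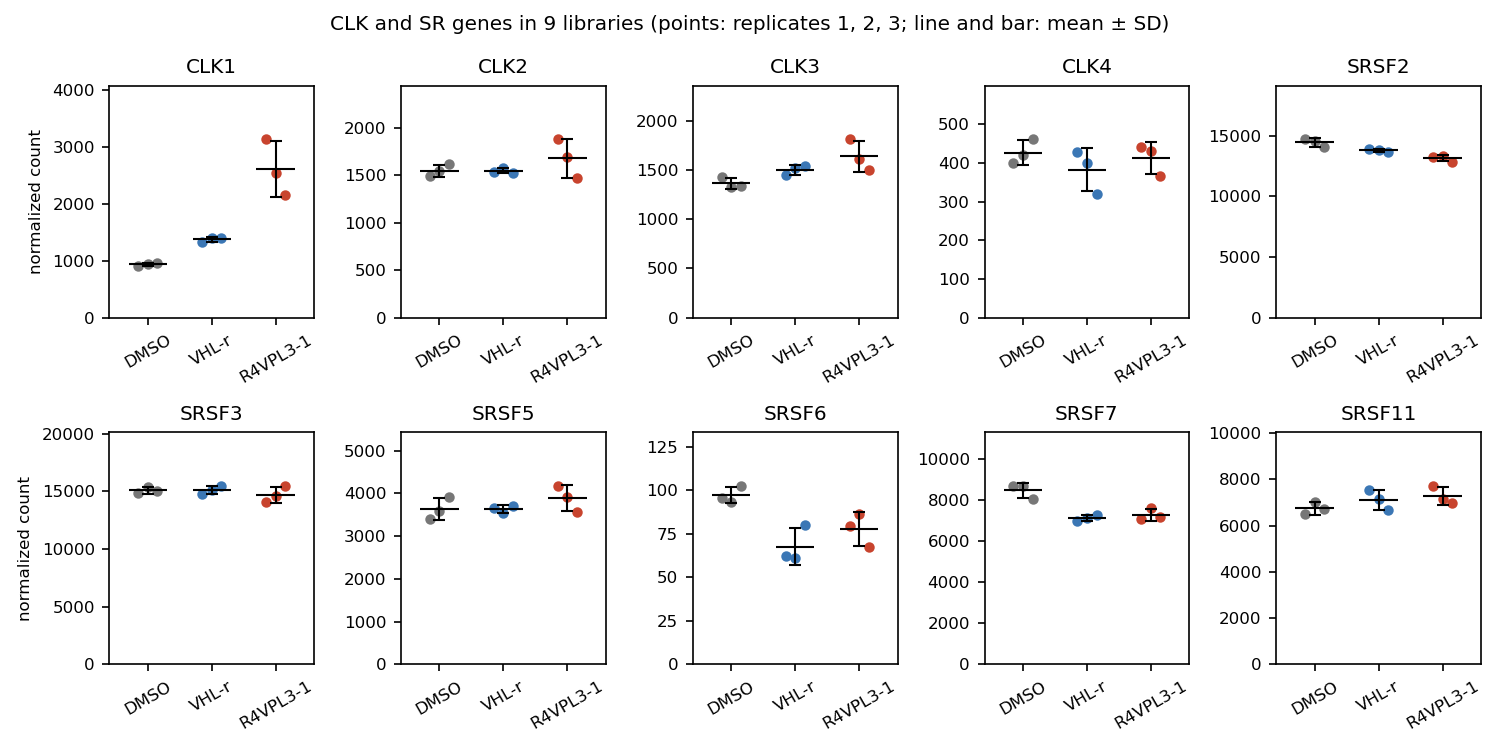
Normalized counts (y axis, from 0) of the 10 genes in the 9 libraries, grouped by treatment on the x axis, with points for replicates 1, 2 and 3 and a line and bar for the mean ± SD of 3 libraries. CLK1 separated into 3 levels, from 907 to 957 in DMSO, 1323 to 1402 in VHL-r and 2147 to 3126 in R4VPL3-1, while SRSF7 sat lower in both treatments than in DMSO.

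The make-up of the CLK transcript pool was followed across the treatments. Levels were compared between genes per kilobase of the canonical transcript (normalized count per kb). The counts take in all transcripts of a gene and may take in reads from its introns. The order between genes and the sizes of their shares therefore depend on this length. Canonical lengths were 1847, 2154, 1854 and 2504 bases for CLK1, CLK2, CLK3 and CLK4, against 5117, 3658, 19697 and 7922 for all annotated exons. The 4 kinases together gave 2133 ± 34.8 per kb in DMSO, 2425 ± 45.1 in VHL-r and 3238 ± 460 in R4VPL3-1 (SD, n = 3). In DMSO CLK3, at 738 ± 30.6, and CLK2, at 719 ± 29.2, overlapped at the top of this order, followed by CLK1 at 506 ± 13.8 and CLK4 at 170.4 ± 12.5. With VHL-r CLK3 was at 810.2 ± 27.2, and CLK1, at 744 ± 23.9, overlapped with CLK2, at 718 ± 12.9. With R4VPL3-1 CLK1 came first, at 1409 ± 267, above CLK3 at 885 ± 85.0 and CLK2 at 780 ± 95.2, which overlapped.

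The share of CLK1 in the summed per-kb level was 23.2%, 24.1% and 23.8% in the DMSO libraries. It was 30.1%, 30.6% and 31.3% in VHL-r, and 45.5%, 42.9% and 41.5% in R4VPL3-1. Like the level, the share had its widest spread in R4VPL3-1 (SD 2.04, against 0.458 in DMSO and 0.59 in VHL-r, n = 3 each). The shares of the other 3 kinases were lower in R4VPL3-1 than in DMSO, with CLK2 at a mean of 24.1% against 33.7%, CLK3 at 27.4% against 34.6% and CLK4 at 5.11% against 7.98%. Shares within a pool are bound to each other, and a lower share is no lower level.

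**Figure D2:**
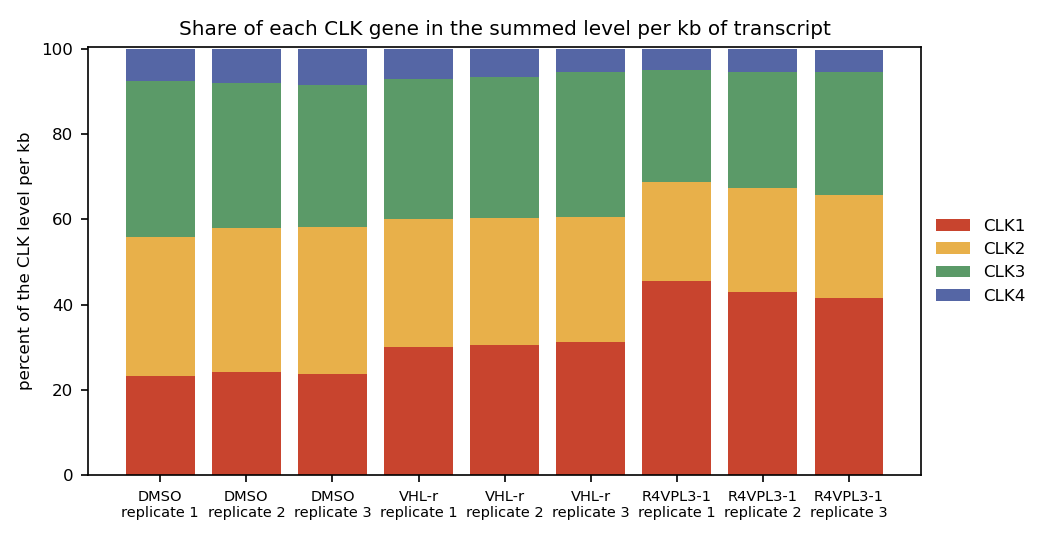
Percent (y axis, from 0) of the summed CLK level per kb of canonical transcript held by each kinase in each of the 9 libraries (x axis). The CLK1 segment takes 23.2% to 24.1% in DMSO, 30.1% to 31.3% in VHL-r and 41.5% to 45.5% in R4VPL3-1.

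Among the SR genes, SRSF7 fell with both compounds. SRSF7 is an SR protein with a zinc knuckle that also acts in mRNA export and in the choice of polyadenylation site, and its gene lies on chromosome 2 (38743599 to 38751494, minus strand). It measured 8677, 8703 and 8066 in DMSO, 6972, 7153 and 7284 in VHL-r, and 7067, 7619.9 and 7202 in R4VPL3-1. The lowest DMSO library was above all 6 treated libraries, and the treated groups overlapped. SRSF7 fell by 15.9% of the DMSO mean in VHL-r (log2 difference -0.25, SE 0.044, limma adjusted p = 3.11e-04) and by 14.0% in R4VPL3-1 (log2 difference -0.22, limma adjusted p = 9.24e-04). Between the compounds the log2 difference was 0.032 (95% interval -0.061 to 0.12, limma adjusted p = 0.916).

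SRSF2, a factor that binds exonic enhancers and promotes exon inclusion, had the highest level per kb of the SR genes compared (chromosome 17, 76734115 to 76737333, minus strand). It measured 14694, 14595 and 14061 in DMSO, 13923, 13830.4 and 13630.3 in VHL-r, and 13282, 13323 and 12861 in R4VPL3-1. The 3 ranges did not overlap, with DMSO highest and R4VPL3-1 lowest, and the whole step from DMSO to R4VPL3-1 was small. SRSF2 fell by 8.96% in R4VPL3-1 against DMSO (log2 difference -0.14, 95% interval -0.22 to -0.055, limma adjusted p = 0.0129). That call was lost without DMSO replicate 1 (adjusted p = 0.0503) or DMSO replicate 2 (adjusted p = 0.0614) in the same limma fit, and the adjusted p ran from 0.00475 to 0.0614 over the 20 alternatives. The log2 differences of -0.067 for VHL-r against DMSO (limma adjusted p = 0.264) and -0.069 for R4VPL3-1 against VHL-r (adjusted p = 0.626) were not called.

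SRSF6, a regulator of alternative exons known from skin and from tumours, could be read only from a small remnant of its gene. It lies on chromosome 20 (43457893 to 43466046, plus strand), and 96.71% of its exon bases fall within the span of a same-strand read-through gene, ENSG00000288000 (43458054 to 43541881), although only 13.36% fall in the exons of that gene. Across the table, 66.5% of 15934 protein-coding genes with no exon base in another same-strand span had a mean of at least 10, against 4.12% of 291 genes with over 95% of their exon bases in such a span and under 5% in its exons. The values for SRSF6 therefore rest on 58 to 105 reads per library, and 161 of its 4894 exon bases are free of the other span. Its level is not comparable with those of the other SR genes.

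SRSF6 measured 95.3, 93.5 and 102 in DMSO, 62.0, 60.9 and 79.9 in VHL-r, and 79.4, 86.6 and 67.5 in R4VPL3-1. All 6 treated libraries were below the lowest DMSO library. In VHL-r the log2 difference from DMSO was -0.53 (SE 0.162, limma adjusted p = 0.0255), but the call did not hold with DESeq2 (adjusted p = 0.0542), without the filter on low values (0.0503), or without any 1 of the 3 DMSO libraries (0.0568, 0.0565 and 0.0774 without replicates 1, 2 and 3), VHL-r replicate 1 (0.0938) or VHL-r replicate 2 (0.109). The lowest adjusted p over the 20 alternatives was 0.0121. The log2 difference of -0.32 in R4VPL3-1 was not called (95% interval -0.66 to 0.016, limma adjusted p = 0.162). The read-through gene that covers it was at 9.99, 5.90 and 7.10 in DMSO, 22.0, 22.1 and 16.4 in VHL-r, and 28.0, 16.9 and 21.4 in R4VPL3-1, higher in each treated library than in each DMSO library, and its part in the lower SRSF6 values was not tested. A processed copy, SRSF6P2, shared 2.63% of the 100-base windows.

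SRSF3, SRSF5 and SRSF11 were not called in any comparison. SRSF3, the smallest SR protein and a regulator of proliferation genes (chromosome 6, 36594353 to 36605600, plus strand), measured 14819, 15391 and 15036 in DMSO, 14772, 15069.9 and 15459 in VHL-r, and 14029, 14560.4 and 15413 in R4VPL3-1. Its 95% intervals were the narrowest beside those of SRSF2, from -0.086 to 0.090 on the log2 scale for VHL-r against DMSO, -0.13 to 0.047 for R4VPL3-1 against DMSO and -0.13 to 0.045 for R4VPL3-1 against VHL-r. SRSF5, an SR protein first known as a growth-response gene of regenerating liver (chromosome 14, 69726900 to 69772005, plus strand), measured 3395, 3586 and 3919 in DMSO, 3663, 3535 and 3717 in VHL-r, and 4175, 3907 and 3567 in R4VPL3-1. The DMSO range held all VHL-r libraries and reached into the R4VPL3-1 range, with a log2 difference of 0.095 between R4VPL3-1 and DMSO (95% interval -0.026 to 0.22, limma adjusted p = 0.258) and of 0.0040 between VHL-r and DMSO (-0.12 to 0.13).

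SRSF11, an SR-related protein found with the U2AF splicing factor (chromosome 1, 70205682 to 70253052, plus strand), measured 6482, 7016 and 6710.0 in DMSO, 7516, 7134 and 6674 in VHL-r, and 7709.9, 7146 and 6954 in R4VPL3-1. The highest libraries were in the treated groups, and each treated group overlapped with DMSO. Its log2 difference from DMSO was 0.11 in R4VPL3-1 (95% interval 0.0039 to 0.22, limma adjusted p = 0.126) and 0.077 in VHL-r (-0.029 to 0.18, adjusted p = 0.340). Between the compounds SRSF11 differed by 0.033 (95% interval -0.073 to 0.14).

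Summed over the 6 SR genes, the normalized counts were 47895 to 49385 in DMSO, 46782 to 46907 in VHL-r and 46065 to 46643 in R4VPL3-1. The 3 ranges did not overlap, with DMSO highest and R4VPL3-1 lowest. SRSF2, SRSF3, SRSF6 and SRSF7 had lower means in R4VPL3-1 than in DMSO, and SRSF5 and SRSF11 had higher ones. The sum over the 4 kinases, on the same scale, was 4229 to 4371 in DMSO, 4730.4 to 4896 in VHL-r and 5478 to 7253 in R4VPL3-1. CLK1 rose most, from a mean of 935 in DMSO to 2603 in R4VPL3-1, while CLK4 went from 427 to 412. Differences between these sums were not tested. Per kb of canonical transcript and leaving out SRSF6, the DMSO order of the SR genes was SRSF2 at 7654 ± 180.5, SRSF7 at 3600.0 ± 153, SRSF3 at 3567 ± 68.4, SRSF5 at 2429 ± 177 and SRSF11 at 1701 ± 67.7 (SD, n = 3). SRSF7 and SRSF3 could not be ranked in DMSO because their libraries overlapped. With the compounds they separated, SRSF7 at 3029 ± 66.5 in VHL-r and 3097 ± 122 in R4VPL3-1 against SRSF3 at 3571 ± 81.5 and 3469 ± 165. Each SR gene in this order was above each kinase in DMSO, and this order also depends on the use of canonical lengths.

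Read across comparisons, 1 of the 10 genes was called in R4VPL3-1 against VHL-r (CLK1, higher), where the background was 1.87% of all tested genes, with 1.14% higher and 0.729% lower. In R4VPL3-1 against DMSO 4 were called (CLK1 and CLK3 higher, SRSF7 and SRSF2 lower), where the background was 24.9%, with 13.1% higher and 11.8% lower. In VHL-r against DMSO 3 were called (CLK1 higher, SRSF7 and SRSF6 lower), where it was 19.8%, with 10.3% higher and 9.51% lower. The groups did not overlap for 2, 5 and 5 of the 10 genes, against 14.1%, 38.0% and 34.3% of all tested genes. The counts against DMSO are near those backgrounds for a set of 10 genes. The median log2 difference of the 10 was 0.10 for R4VPL3-1 against VHL-r, 0.027 for R4VPL3-1 against DMSO and 0.00017 for VHL-r against DMSO, against -0.0056, -0.0063 and -0.0045 over all genes. The comparisons with DMSO share the same control libraries, and each treated group enters the direct comparison too, so these counts are not independent.

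**Figure D3:**
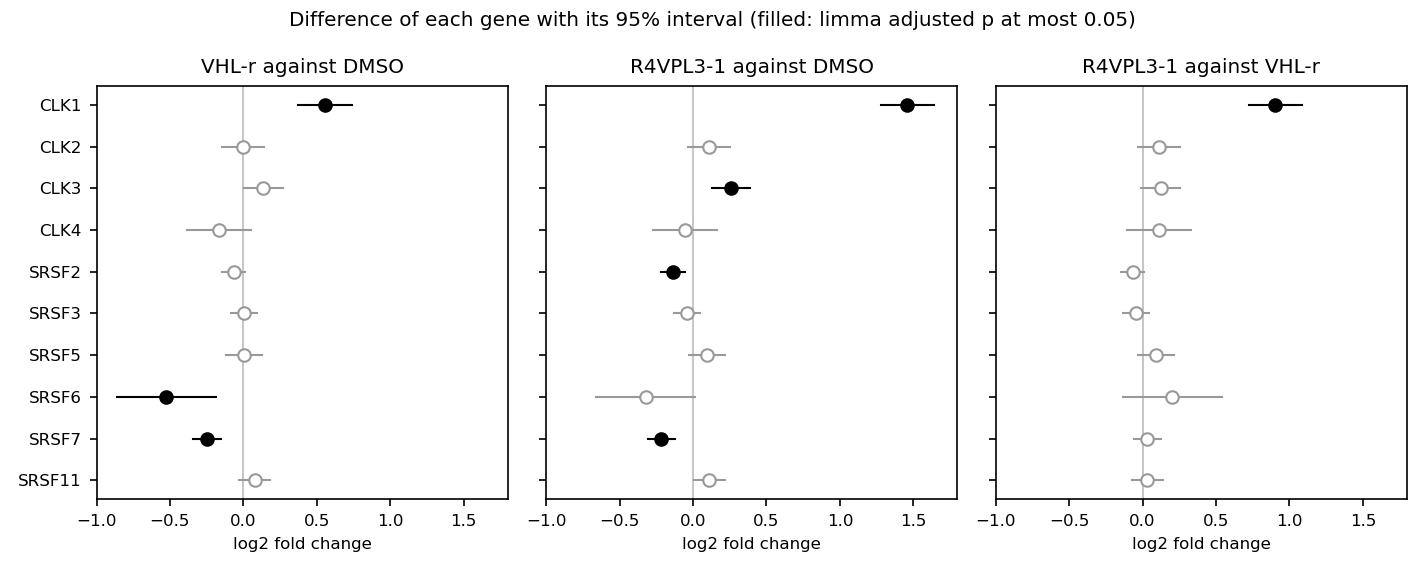
Log2 fold change (x axis) with its 95% interval for each of the 10 genes (y axis) in the 3 comparisons, filled where the limma adjusted p over all tested genes was at most 0.05. CLK1 stands right of 0 in each panel, at 0.55, 1.46 and 0.90, and SRSF7 stands left of 0 at -0.25 and -0.22 in the panels against DMSO.

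The wider splicing machinery was examined with 7 lists of 117 genes, of which 112 were tested. In R4VPL3-1 against VHL-r limma called 0 of the 112, with 7 at an unadjusted p under 0.05, and edgeR and DESeq2 on the recovered reads also called 0, while 3 were called without R4VPL3-1 replicate 3. Against DMSO, 27 (24.1%) were called with R4VPL3-1, 9 higher and 18 lower, and 21 (18.8%) with VHL-r, 6 higher and 15 lower, close to the backgrounds of 24.9% and 19.8%. The VHL-r count was 13 without DMSO replicate 2 and 12 without VHL-r replicate 2. The median log2 difference of the 112 genes was -0.041 for R4VPL3-1 and -0.026 for VHL-r against DMSO. Of the other SR proteins, 2 of 6 were called and both fell in both treatments. SRSF8, an intronless relative of SRSF2, went from 1529 in DMSO to 1180 in VHL-r and 1119 in R4VPL3-1 (log2 differences -0.38 and -0.45). SRSF4 went from 4018 to 3312 and 3504 (-0.28 and -0.20).

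Of 20 RS-domain and SR-related genes, 5 were called with R4VPL3-1 (3 higher, 2 lower) and 3 with VHL-r (1 higher, 2 lower). RSRP1, an arginine- and serine-rich protein, had the largest rise of all the list genes. It measured 727, 861 and 938 in DMSO, 1783, 1672 and 1861 in VHL-r, and 2056, 1787 and 1747 in R4VPL3-1. RSRP1 rose by 1.08 and 1.15 on the log2 scale with VHL-r and R4VPL3-1 (limma adjusted p = 3.10e-09 and 6.42e-10), and 6.33% of its exon bases lie in another same-strand span. SRRM1, a splicing coactivator, fell by 0.23 with R4VPL3-1, a call that did not hold when DMSO replicate 1, DMSO replicate 3, R4VPL3-1 replicate 2 or R4VPL3-1 replicate 3 was left out (limma adjusted p of 0.129, 0.0589, 0.0720 and 0.190) or with the robust option (0.0950). RBM39, a U2AF-related factor, fell by 0.17 with VHL-r, a call lost without VHL-r replicate 2 (limma adjusted p = 0.0638).

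The other enzymes that act on SR proteins gave 2 calls of 9 in each treatment, and both were kinases that fell. PRPF4B, a CLK-related kinase of the spliceosome, went from 3554 in DMSO to 2968 in VHL-r and 2786 in R4VPL3-1 (log2 differences -0.26 and -0.35). DYRK1A, a kinase of the same wider family as the CLKs, went from 1154 to 926 and 921 (-0.32 and -0.32). The SR protein kinases SRPK1, SRPK2 and SRPK3 and the other members of that list were not called.

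Of the 31 core spliceosome genes tested, 2 were called with R4VPL3-1 and 1 with VHL-r. SNRPD1, an Sm ring protein, fell by 0.21 and PRPF8, the central U5 protein, rose by 0.20 with R4VPL3-1. SF3A2, a U2 protein, fell by 0.20 with VHL-r, with calls lost without DMSO replicate 1 or 3, VHL-r replicate 1 or 2, or R4VPL3-1 replicate 2 (limma adjusted p from 0.0547 to 0.203), without the filter on low values (0.0680), with library-total scaling (0.0543) and with the robust option of limma (0.0691). Of 23 hnRNP and poly-pyrimidine or poly-C binding genes, 8 were called with R4VPL3-1, 7 of them lower, and 6 with VHL-r, 4 of them lower. HNRNPDL went from 12296 in DMSO to 9803 in VHL-r and 10270.0 in R4VPL3-1, and its relative HNRNPD from 13635 to 12225 and 11845.

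Of 14 other splicing regulators 5 were called in each treatment, 2 higher and 3 lower. MBNL2, a muscleblind-like regulator of developmental exons, fell by 0.43 with VHL-r and 0.50 with R4VPL3-1 on the log2 scale. CIRBP, the cold-inducible RNA-binding protein, rose by 0.32 with R4VPL3-1, and QKI, a regulator of myelin and circular RNAs, fell by 0.22 with VHL-r. Of 9 nonsense-mediated decay factors 3 were called with R4VPL3-1 (2 higher, 1 lower) and 2 with VHL-r (1 higher, 1 lower). The decay kinase SMG1 rose by 0.28 with R4VPL3-1. SMG6, the decay endonuclease, rose by 0.20 with VHL-r. The SMG6 call did not hold when DMSO replicate 2, DMSO replicate 3 or any 1 VHL-r library was left out (limma adjusted p from 0.0516 to 0.150), nor without the filter on low values (0.0590).

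**Figure D4:**
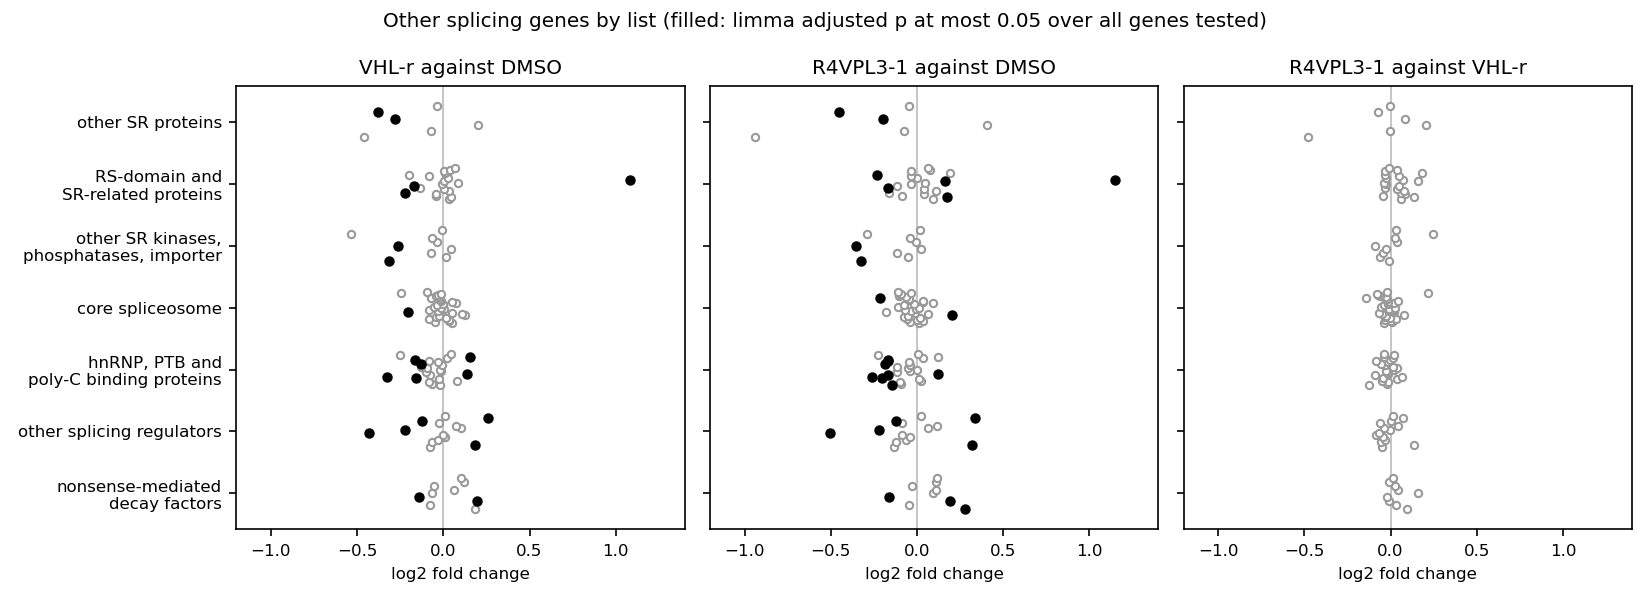
Log2 fold change (x axis) of each of the 112 tested genes in 7 splicing lists (y axis) for the 3 comparisons, filled where the limma adjusted p over all tested genes was at most 0.05. RSRP1 is the filled point above 1 in both panels against DMSO, and no point is filled in R4VPL3-1 against VHL-r.

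For the 3 genes with the widest range of treatment means on the log2 scale (CLK1, SRSF6 and CLK3), the tested genes with the most similar profile over the 9 libraries were found by the root mean square difference of the centred log2 values. Nearest to CLK1 among 15229 genes was BAG3, a co-chaperone of HSP70, at 0.0803, followed by CLU, the extracellular chaperone clusterin, at 0.138, and INSIG1, a sterol sensor of the endoplasmic reticulum, at 0.148. The median gene was 0.631 away from CLK1. The likeness takes in differences between replicates as well as treatment means. On the centred scale, R4VPL3-1 replicates 1, 2 and 3 were at 1.12, 0.828 and 0.522 for BAG3 and 1.07, 0.767 and 0.527 for CLK1. BAG3 went from a mean of 3333 in DMSO to 4388 in VHL-r and 9136 in R4VPL3-1, with log2 differences from DMSO of 0.40 and 1.43 beside the 0.55 and 1.46 of CLK1. CLU went from 187 to 279.6 and 454, and INSIG1 from 883 to 1402 and 3062.

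Nearest to SRSF6 were GPANK1, ZNF783 and SPRED3, at 0.0856, 0.0896 and 0.0898, where the median gene was at 0.287. All 3 were lower with both compounds, GPANK1 going from 896 in DMSO to 608 in VHL-r and 661 in R4VPL3-1. Nearest to CLK3 were TOP3B, ZCCHC8 and HYAL3, at 0.0377, 0.0382 and 0.0420, where the median gene was at 0.186. TOP3B, a topoisomerase that also acts on RNA, went from 507 to 549 and 612. These profiles share the same 9 libraries and their size factors, and the CLK3 and SRSF6 profiles span a small range (0.26 and 0.53 between the highest and lowest treatment means).

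**Figure D5:**
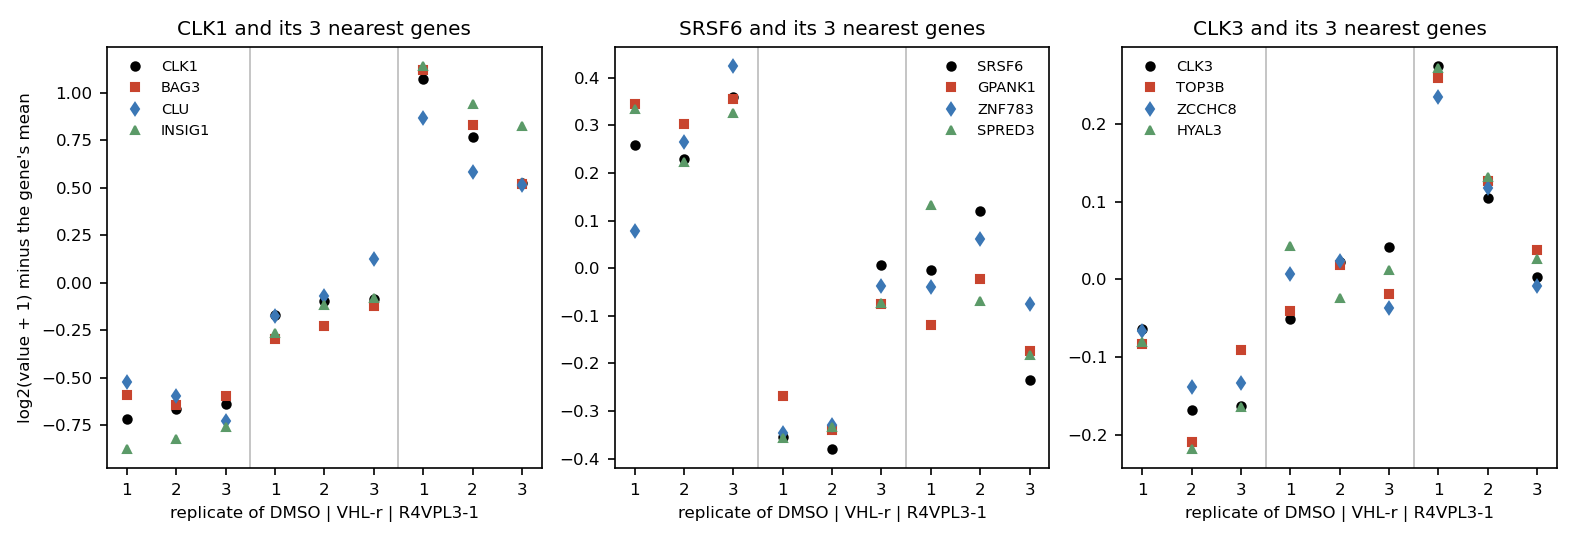
Log2(normalized count + 1) minus the mean of the gene (y axis) in the 9 libraries (x axis, replicates 1 to 3 of DMSO, VHL-r and R4VPL3-1) for CLK1, SRSF6 and CLK3, each with the 3 tested genes of the most similar profile. BAG3 tracks CLK1 with a root mean square difference of 0.0803, and the CLK3 and SRSF6 panels have narrower axes.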

How the data were processed

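RNA from A375R cells was selected for poly(A) and sequenced by the authors as directional single reads of 100 bases. Per the labels and the study's methods, reads were aligned to GRCh38 with STAR, assigned to genes by htseq-count (reverse strand mode) and normalized with DESeq2 (1.36.0). The deposited signal is this normalized count, reads divided by a size factor for each library. The values themselves show that genes inside the span of another same-strand gene, its introns included, hold almost no reads.

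Here, limma (3.58.1, R 4.3.3) was run with the trend option on log2(value + 1), for genes with a mean of at least 10, fitting the 9 libraries by treatment only, with no replicate block, after the study's methods. Benjamini-Hochberg adjustment covered all 15230 genes. Whole reads were recovered from the deposited signal (100.0% of values came out whole in each library) for edgeR (4.0.16) and DESeq2 (1.42.0). The fits and the recovery were tested on simulated data. Other alternatives were a pseudocount of 0.1 or 5, a minimum mean of 50 or none, and 3 rescalings (TMM factors, upper quartile, library total). The rest were limma's robust option, a replicate block, a fit to just the 6 libraries of a comparison, a stricter threshold of 0.01 and leaving out each library. At 58 to 105 reads per library, SRSF6 had the largest counting error, relative to its level, of the 10 genes.

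The members and lists were chosen with earlier results of these data known. From each splicing list the 2 called genes with the lowest adjusted p in each comparison were named, except for a gene that is not reported here. Exons, transcript classes and lengths came from GENCODE 44, in which 62639 of the 62710 genes matched. Each pair of replicates within a treatment differed by 3.55 to 7.84 times the sampling noise (chi-square per degree of freedom), so none was a second sequencing of another library. This does not show whether the cultures behind them were independent.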

Additional observations from a re-analysis of the deposited data

How the results depend on the processing

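CLK1 in the 3 comparisons, SRSF7 in both against DMSO and CLK3 in R4VPL3-1 against DMSO were called in each of 20 alternatives with limma, edgeR or DESeq2. These 20 kept the threshold of 0.05 and had no replicate block. Over the 10 genes and 22 alternatives per comparison, 627 of 660 values kept their direction and their side of the threshold, 11 lost a call (SRSF2 and SRSF6, and both of these at an adjusted p of at most 0.01), 1 gained one (CLK2) and 21 changed sign. All that changed sign were uncalled differences, the largest that of 0.11 for CLK4 in R4VPL3-1 against VHL-r. For CLK2 in VHL-r against DMSO the log2 difference turned from -0.0013 to 0.0025 (TMM), 0.0069 (upper quartile), 0.014 (library total), 0.0021 (edgeR) and 0.000087 (DESeq2). With each library left out, the ranges that crossed 0 were, in VHL-r against DMSO, -0.029 to 0.029 for CLK2, -0.015 to 0.017 for SRSF3 and -0.044 to 0.060 for SRSF5. In R4VPL3-1 against VHL-r they were -0.0097 to 0.20 for CLK4, -0.00016 to 0.054 for SRSF7 and -0.012 to 0.074 for SRSF11, and in R4VPL3-1 against DMSO -0.10 to 0.033 for CLK4. The genes called in R4VPL3-1 against VHL-r ran from 182 (without R4VPL3-1 replicate 1) to 358, the splicing list genes from 0 to 3, and those in VHL-r against DMSO from 12 to 22. At an adjusted p of at most 0.01, 2494 genes were called for R4VPL3-1 against DMSO, 1885 for VHL-r against DMSO, and 12 list genes in the latter. Of 594 values of the named list genes 563 kept direction and call and 31 lost the call. The cause of the sign changes and lost calls was not tested, beyond the fewer samples of the fits without a library.

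The main fit did not pair libraries by replicate number. Residuals of same-numbered libraries correlated at -0.006 to 0.121, and those of differently numbered libraries at -0.148 to 0.098. Whether the replicate numbers mark a shared effect was not tested. With the replicate block, 389, 4241 and 3451 genes were called for R4VPL3-1 against VHL-r, R4VPL3-1 against DMSO and VHL-r against DMSO. Without it these counts were 285, 3792 and 3016. Of the 10 genes, 1, 4 and 3 were called with the block, as without it.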

Other observations

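Several splicing genes could not be measured for the same reason as SRSF6. Of the 117 list genes, 6 had over 95% of their exon bases in the span of another gene on the same strand (SRSF1, SNRPD3, HNRNPA1, HNRNPUL2, TIA1 and SMG8), and all but SRSF1 had a mean under 10 and were not tested. Some tested list genes lay partly in such a span, with LUC7L2 at 86.42%, PPP1CB at 60.91%, PCBP2 at 44.78%, HNRNPL at 39.62% and SRPK3 at 31.34%. Of these, LUC7L2 was among the genes called in VHL-r against DMSO (limma adjusted p = 0.042). SRSF1, the founding SR protein, which is abundant in most cells, was at 17.2, 17.7 and 16.2 in DMSO, 17.0, 12.6 and 8.19 in VHL-r, and 10.3, 5.97 and 9.64 in R4VPL3-1. Its log2 difference of -0.94 between R4VPL3-1 and DMSO was not called (limma adjusted p = 0.0556), and these values describe a remnant of its reads.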
